A study of Mus musculus with 8 samples.

Results

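Expression of 38 genes that encode nucleolar ribosome biogenesis factors was examined in mouse E14 embryonic stem cells (ESCs) depleted of Tip60, of Hdac6 or of both. The genes were taken by name: every probe whose gene name on the arrays was in a list of 38 known members was collected, and all 38 had at least 1 probe among the 30175 gene names. The list was set by function, as genes known to respond to the transcription factor Myc. It was chosen with earlier results of these data known, so it is not independent of the values. All 38 passed the filter on dim probes, as did 18116 genes in all, and none of their values lay at the floor below which signals were not distinguished.

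The cells were grown without feeders on gelatin in medium with LIF, infected with lentivirus carrying a short hairpin RNA, and harvested 72 hr later. The 8 arrays form 4 groups of 2 biological replicates, A and B: control knockdown (KD), with a hairpin against GFP; Tip60 KD; Hdac6 KD; and double KD, with both hairpins. All groups, controls included, had therefore been infected, and each gene was depleted with 1 hairpin, so that an effect of that hairpin on other transcripts cannot be told apart from depletion of its target. Tip60, encoded by Kat5, is the acetyltransferase of the Tip60-p400 chromatin remodelling complex, and Hdac6 is a deacetylase of class II. The comparisons ask which genes depend on each protein, and whether depletion of Hdac6 has a further effect in cells already depleted of Tip60.

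Ribosomes are assembled in the nucleolus. RNA polymerase I transcribes a long ribosomal RNA (rRNA) precursor, small nucleolar RNPs (snoRNPs) guide its chemical modification and cleavage, and separate sets of assembly factors build the small and the large subunit around it before both leave for the cytoplasm. Genes for these factors are among the best known targets of Myc, and rapidly cycling cells such as ESCs make ribosomes at a high rate.

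Levels are given as log2 of an array's signal over that array's 75th percentile, changes as differences of these levels, and a gene was called when its Benjamini-Hochberg adjusted p from limma, over all 18116 genes, was under 0.1. The targeted genes checked the labels. Kat5 lay at 1.34 and 1.37 on the control arrays, 0.00 and 0.01 after Tip60 KD, 1.52 and 1.53 after Hdac6 KD and -0.11 and 0.20 after double KD. Hdac6 lay at 2.21 and 2.18 on the control arrays, 1.74 and 1.77 after Tip60 KD, -0.28 and -0.32 after Hdac6 KD and 0.30 and 0.34 after double KD. Each target was therefore lower on every array of its own knockdown than on the control arrays, and Hdac6 mRNA was also lower in Tip60 KD (change -0.44 ± 0.07, SE, adjusted p = 0.00622). Myc lay at 0.34 and 0.26 on the control arrays, 3.57 and 3.33 after Tip60 KD, 2.35 and 2.16 after Hdac6 KD and 3.52 and 3.23 after double KD. Myc mRNA thus rose in all 3 knockdowns, 8.89-fold, 3.88-fold and 8.45-fold (adjusted p = 0.00051, 0.00188 and 0.00079).

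All 12 ESC markers, among them Pou5f1 and Sox2, passed the filter, against 8 of 12 germ layer markers (not Cdx2, Foxa2, Gata6 or T) and 4 of 9 fibroblast markers (not Col1a2, Dcn, Fap, Pdgfra or Postn). The summed linear signal of the germ layer markers that passed was 4.52 and 4.74 on the control arrays, 5.15 and 5.62 with Tip60 depleted, 4.57 and 5.41 with Hdac6 depleted and 4.96 and 5.61 with both. That of the fibroblast markers was 2.08 and 1.84, 2.96 and 2.50, 2.02 and 1.94, and 2.91 and 2.64 in the same order. Thus both sums were higher in Tip60 and double KD. The ESC marker sum was higher there too, at 365 and 372 in Tip60 KD and 382 and 363 in double KD. It was 352 and 351 in control KD and 349 and 347 in Hdac6 KD. Of the 8 germ layer markers, 1 was called higher and 1 lower in each knockdown. Of the 4 fibroblast markers, 2, 0 and 2 were called higher in Tip60, Hdac6 and double KD, and none lower. Of the 12 ESC markers, 6, 3 and 4 were called higher and 0, 0 and 1 lower in Tip60, Hdac6 and double KD. The part of these markers in the results below was not tested. The background that the scanner software subtracted was also highest in the control array of each replicate. In replicate A it was 61.0 units in control KD against 37.2, 37.7 and 39.4 in Tip60, Hdac6 and double KD. In replicate B it was 114 against 89.0, 86.9 and 41.4. With 1 background common to all arrays, 22, 17 and 15 of the 38 genes were called in Tip60, Hdac6 and double KD, against 22, 20 and 16 as reported here. Of these members 18, 15 and 13 were higher and 4, 2 and 2 lower. Of all 18116 genes, 3105, 2177 and 2335 were then called higher and 3302, 2275 and 2621 lower. Fewer cells that express a gene and less of its RNA per cell cannot be told apart in such bulk samples, and the p-values measure the spread between 2 replicates a group only.

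In Tip60 KD, 22 of the 38 genes (57.9%) were called, against 39.7% of all genes tested. Of these, 18 rose, which is 47.4% of the 38 against 19.7% of all genes, and 4 fell, 10.5% against 20.0%. In Hdac6 KD, 20 (52.6%) were called against 28.9% of all genes, with 17 higher (44.7% against 14.0%) and 3 lower (7.89% against 14.9%). In double KD, 16 (42.1%) were called against 32.8%, with 13 higher (34.2% against 15.9%) and 3 lower (7.89% against 16.9%). The shift was small for most members: the median change was 0.23, 0.24 and 0.12 in Tip60, Hdac6 and double KD, beside 0.06, 0.03 and 0.05 over all genes, and only 2, 2 and 3 members were called with a change of at least 2-fold. In the authors' own table of log2 values, 18, 15 and 14 members were called higher and 3, 1 and 1 lower in Tip60, Hdac6 and double KD. Of all 18116 genes, 3117, 2024 and 2291 were called higher in that table and 3124, 2018 and 2092 lower. These 3 comparisons use the same pair of control arrays.

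Because the 4 groups share each slide, a knockdown array could be set against the control array beside it. In Tip60 KD, 26 of 37 members were higher than control on both slides, 8 were lower on both and 3 were split, where Nop2 had no such pair because its spot on control array A was marked an outlier and left out. For Hdac6 KD these counts were 25, 9 and 3, and for double KD they were 22, 11 and 4. The median change was 0.22 on slide A and 0.26 on slide B for Tip60 KD, 0.24 and 0.23 for Hdac6 KD, and 0.14 and 0.08 for double KD. With the slide as a block in the fit, the members called rose to 30 (78.9%, against 60.8% of all genes), 26 (68.4%, against 52.9%) and 24 (63.2%, against 55.4%). The count for Hdac6 KD depended most on single arrays. It was 12 (31.6%, against 18.01% of all genes) without control array A, 8 (21.1%, against 17.5%) without control B, 8 (21.1%, against 17.3%) without Hdac6 KD A and 10 (26.3%, against 14.7%) without Hdac6 KD B. Without control B or Hdac6 KD A the share was thus near that of all genes. The count for double KD was 10 (26.3%) without control B or without double KD A, against 22.3% and 22.7% of all genes.

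**Figure D1:**
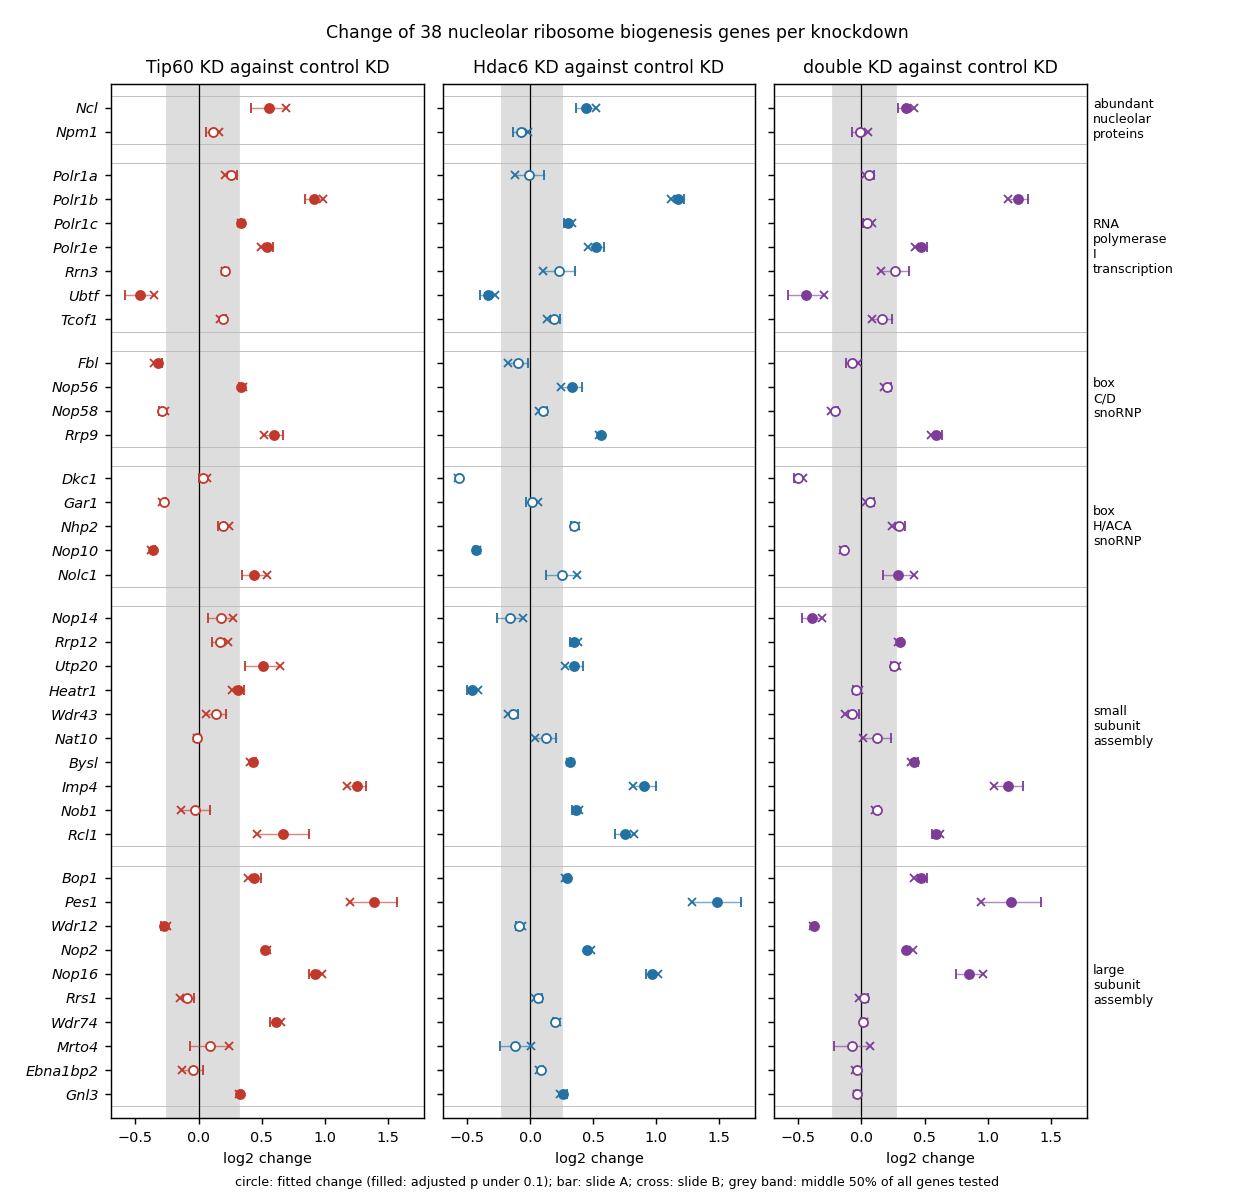
Log2 change of each of the 38 genes in Tip60, Hdac6 and double KD against control KD (x axis), grouped by role in ribosome assembly. Circles are the fitted changes, filled where the adjusted p was under 0.1, bars and crosses the differences within slide A and slide B (Nop2 has none for slide A), and the grey band the middle 50% of all genes tested. Pes1, Imp4, Polr1b and Nop16 lie furthest to the right in all 3 panels, while Ubtf is a filled circle left of 0 in each and Dkc1 an open circle further left in Hdac6 and double KD.

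Myc binds as a dimer with Max to the letters CACGTG, called an E-box, so the promoters of the members were searched for them. RefSeq promoter windows (build GRCm38.p6, around the annotated start of a gene) were at hand for 32 members, all but Bop1, Fbl, Npm1, Rrp12, Rrs1 and Tcof1. The letters read the same on both strands. They stood in windows of 6 members (18.8%), against 10.9% of the 11412 genes tested on the arrays that had a window and 8.09% of all 27025 genes with one. The 7 matches are printed here because these members include the genes of largest change and others that were not called, with up to 60 bases around each match and the E-box in capitals:
Pes1, chr11:3963945-3964004, + strand: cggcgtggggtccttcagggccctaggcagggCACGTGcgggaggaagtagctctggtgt
Imp4, chr1:34439681-34439740, + strand: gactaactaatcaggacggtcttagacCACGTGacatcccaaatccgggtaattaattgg
Nop2, chr6:125131796-125131855, + strand: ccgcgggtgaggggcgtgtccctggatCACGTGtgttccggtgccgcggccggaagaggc
Utp20, chr10:88826765-88826789, - strand: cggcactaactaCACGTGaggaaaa
Wdr43, chr17:71616185-71616244, + strand: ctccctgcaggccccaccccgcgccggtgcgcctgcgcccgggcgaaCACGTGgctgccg
Rrn3, distal match, chr16:13780457-13780516, + strand: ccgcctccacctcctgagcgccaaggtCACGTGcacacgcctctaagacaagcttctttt
Rrn3, proximal match, chr16:13780624-13780683, + strand: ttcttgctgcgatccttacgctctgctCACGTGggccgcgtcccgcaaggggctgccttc
The match lies upstream of the annotated start in Imp4, Nop2 and Rrn3 and just past it in Pes1, Wdr43 and Utp20. Pes1, Imp4 and Nop2 were called higher in all 3 knockdowns, Utp20 in Tip60 and Hdac6 KD, and Rrn3 and Wdr43 in none of the 3. Polr1b, Nop16 and Rrp9, which were called higher in all 3, have windows without these letters. Members with and without the letters were thus found both among the called genes and among the others. A match in a window is a description of its letters and not of binding.

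Of the 10 genes for large subunit assembly, 6 rose and 1 fell in Tip60 KD, 5 rose in Hdac6 KD, and 4 rose and 1 fell in double KD. The largest change in both single knockdowns was that of Pes1, which with Bop1 and Wdr12 forms a complex needed to process the large subunit rRNAs. Pes1 (probe at chr11:3879948-3880007, build mm9 as in the files) lay at -0.0025 and 0.46 on the control arrays, 1.57 and 1.66 after Tip60 KD, 1.67 and 1.74 after Hdac6 KD and 1.42 and 1.41 after double KD. No knockdown array overlapped the controls, although the control arrays were further apart than any other pair. Its changes were 1.39 ± 0.15, 1.48 ± 0.15 and 1.18 ± 0.15 (SE), or 2.62-fold, 2.78-fold and 2.27-fold (adjusted p = 0.00214, 0.0038 and 0.00528). A second probe for Pes1 did not show this rise, as described with the other probes below.

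Bop1, the partner of Pes1 with WD40 repeats, lay at 2.59 and 2.60 on the control arrays, 3.08 and 2.99 after Tip60 KD, 2.90 and 2.87 after Hdac6 KD and 3.11 and 3.02 after double KD. It rose by 0.44 ± 0.08, 0.29 ± 0.08 and 0.47 ± 0.08 (adjusted p = 0.00855, 0.0471 and 0.0101), with the control arrays below all others. With the slide as a block and a trend on probe GC content removed, its change in Tip60 KD was 0.29 (adjusted p = 0.0112). Its call in Hdac6 KD was lost without either control array or either Hdac6 KD array (adjusted p = 0.144 to 0.165), and with normexp or a common background (0.172 and 0.114). Wdr12, the third protein of the complex, went the other way: its probe of highest signal lay at 2.80 and 2.79 on the control arrays, 2.50 and 2.54 after Tip60 KD, 2.68 and 2.73 after Hdac6 KD and 2.43 and 2.41 after double KD. It fell by 0.28 and by 0.37 on the log2 scale in Tip60 and double KD (SE 0.07, adjusted p = 0.0276 and 0.0138), and its change of -0.09 in Hdac6 KD was not called (adjusted p = 0.441). With the mean of its probes the changes in Tip60 and double KD were 0.012 and -0.0015, and neither was called.

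Nop16, a nucleolar protein of the early large subunit, lay at 0.31 and 0.42 on the control arrays, 1.18 and 1.40 after Tip60 KD, 1.23 and 1.44 after Hdac6 KD and 1.06 and 1.38 after double KD. Every knockdown array was above the controls, and the rises were 1.90-fold, 1.96-fold and 1.81-fold (log2 changes 0.92, 0.97 and 0.85, SE 0.15, adjusted p = 0.00672, 0.0102 and 0.0122). Wdr74, a WD40 protein that takes part in early large subunit assembly, was higher in Tip60 KD alone among the calls: 1.33 and 1.25 on the control arrays, 1.89 and 1.91 after Tip60 KD, 1.51 and 1.47 after Hdac6 KD and 1.32 and 1.27 after double KD. Its change was 0.61 ± 0.07 in Tip60 KD (adjusted p = 0.00257). In double KD it was 0.01 ± 0.07 (0.953), with the arrays at the control level, and in Hdac6 KD 0.20 ± 0.07 (0.11), which was called with the slide as a block (0.0314).

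Nop2, a methyltransferase of the large subunit rRNA, lay at 2.65 on its 1 usable control array, 3.17 and 3.19 after Tip60 KD, 3.07 and 3.14 after Hdac6 KD and 2.94 and 3.06 after double KD. The fit gave changes of 0.53, 0.45 and 0.35 (SE 0.10, adjusted p = 0.0178, 0.0409 and 0.0708), and rests for Nop2 on 7 arrays. Its call was lost in Hdac6 KD without either Hdac6 KD array (adjusted p = 0.113 and 0.163) and in double KD without any array of the 3 knockdowns (0.108 to 0.196). With the compared arrays alone in the fit both calls were lost (0.108 and 0.21), and that in double KD also with quantile normalization (0.134). Gnl3, the nucleolar GTPase nucleostemin, abundant in stem cells, lay at 3.32 and 3.24 on the control arrays, 3.65 and 3.56 after Tip60 KD, 3.61 and 3.48 after Hdac6 KD and 3.28 and 3.21 after double KD. It rose by 0.32 ± 0.09 in Tip60 KD and by 0.26 ± 0.09 in Hdac6 KD (adjusted p = 0.0366 and 0.0904), and changed by -0.04 ± 0.09 in double KD (adjusted p = 0.811). The call in Tip60 KD was lost without control B or Tip60 KD A (adjusted p = 0.144 and 0.143), and that in Hdac6 KD without any of the 8 arrays (0.116 to 0.306). With normexp both calls were lost, at changes of 0.23 and 0.13 (0.245 and 0.571). Of the other members of this class, Rrs1, Mrto4 and Ebna1bp2, with changes between -0.12 and 0.09 in the 3 knockdowns, none was called.

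**Figure D2:**
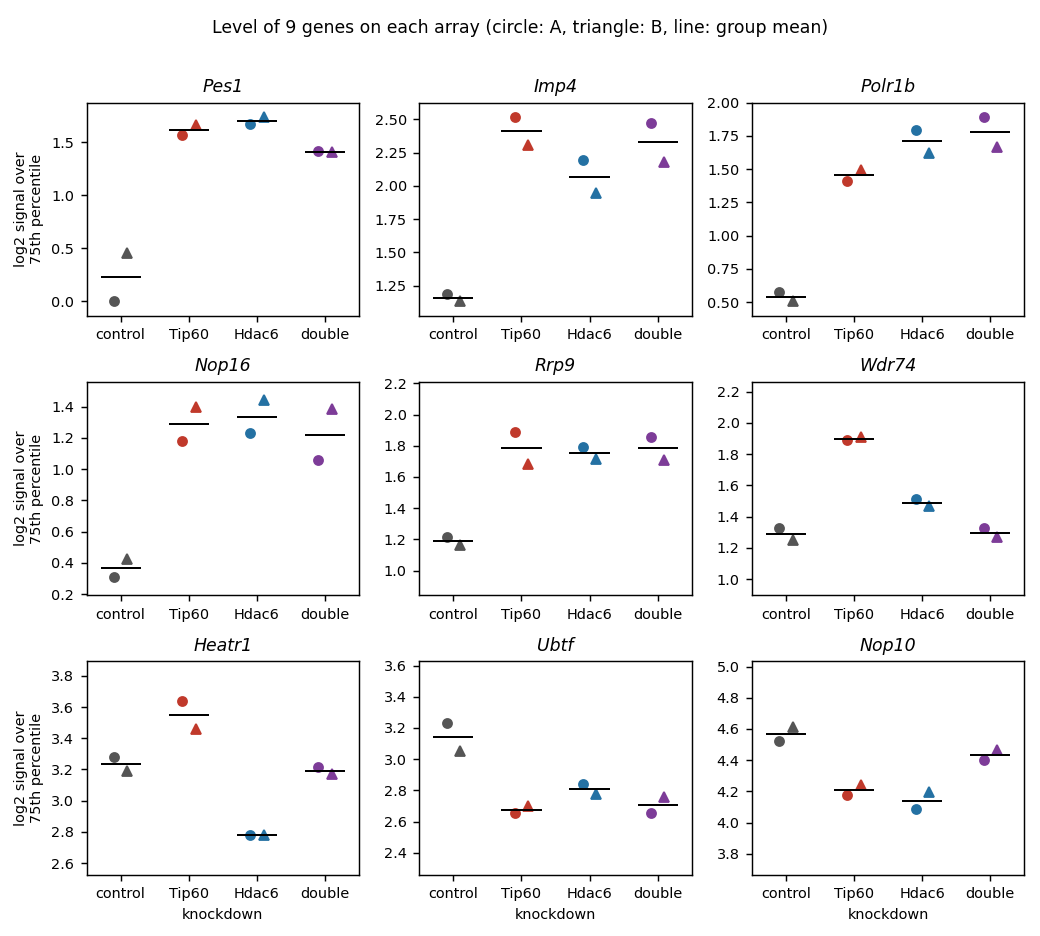
Level of 9 genes on each array, as log2 signal over the array's 75th percentile (y axis, scaled for each gene), by knockdown group (x axis). Circles are replicate A, triangles replicate B and lines the group means. For Pes1, Imp4, Polr1b, Nop16 and Rrp9 every knockdown array lies above both controls, whereas Wdr74 in double KD and Heatr1 in double KD lie at the control level.

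Of the 10 genes for small subunit assembly, 5 rose and none fell in Tip60 KD, 6 rose and 1 fell in Hdac6 KD, and 4 rose and 1 fell in double KD. Imp4, a protein of the U3 snoRNP that cleaves the precursor, lay at 1.19 and 1.13 on the control arrays, 2.52 and 2.31 after Tip60 KD, 2.19 and 1.95 after Hdac6 KD and 2.47 and 2.18 after double KD (probe at chr1:34501741-34501800, mm9). All 6 knockdown arrays were above both controls. Imp4 rose 2.38-fold, 1.87-fold and 2.24-fold (log2 changes 1.25, 0.91 and 1.16, SE 0.14, adjusted p = 0.00237, 0.0109 and 0.00457).

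Rcl1, needed for cleavage of the precursor on the small subunit side, lay at 1.49 and 1.35 on the control arrays, 2.37 and 1.82 after Tip60 KD, 2.17 and 2.18 after Hdac6 KD and 2.05 and 1.97 after double KD. Its changes of 0.67, 0.75 and 0.59 were called (adjusted p = 0.036, 0.0359 and 0.0649), with the Tip60 KD arrays further apart than those of the other groups. None of the 3 was called without control B (0.149, 0.152 and 0.223). In Hdac6 KD the call was also lost without control A or either Hdac6 KD array (0.107 to 0.149), and in double KD without control A or any Hdac6 or double KD array (0.109 to 0.201). Without the filter on dim probes none of the 3 was called (0.113, 0.11 and 0.175). Bysl, an assembly factor of the small subunit, rose from 1.92 and 1.89 in control KD to between 2.20 and 2.38 on the 6 knockdown arrays, by 0.43, 0.32 and 0.42 (adjusted p = 0.00964, 0.0369 and 0.0143). With the slide as a block and the trend on probe GC content removed, its change in Tip60 KD was 0.23 (adjusted p = 0.0186). The rise in Hdac6 KD was not called without a control or an Hdac6 KD array (0.111 to 0.146), nor with normexp (0.136). Utp20, a large scaffold protein of the small subunit processome, rose by 0.51 in Tip60 KD and by 0.35 in Hdac6 KD (adjusted p = 0.0199 and 0.0855), whereas its change of 0.26 in double KD was called with the slide as a block only (0.0892 against 0.165). The call in Hdac6 KD was lost without any array but Hdac6 KD B (0.103 to 0.296) and with normexp, a common background, no filter, the authors' table or the compared arrays alone (0.107 to 0.168).

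Heatr1, a HEAT repeat protein of the processome that is also needed for RNA polymerase I transcription, was the member that moved in opposite directions in the single knockdowns. It lay at 3.28 and 3.19 on the control arrays, 3.64 and 3.46 after Tip60 KD, 2.78 and 2.78 after Hdac6 KD and 3.21 and 3.17 after double KD (probe at chr13:12531103-12531160, mm9). No arrays of the single knockdowns and the controls overlapped, and the double KD arrays stood within the range of the controls or just below it. Heatr1 rose by 0.31 ± 0.09 in Tip60 KD (adjusted p = 0.0417) and fell by 0.46 on the log2 scale in Hdac6 KD, to 0.729 of control (SE 0.09, adjusted p = 0.0192), with a change of -0.04 ± 0.09 in double KD (adjusted p = 0.775). The rise was lost without control B or Tip60 KD A (adjusted p = 0.16 and 0.153), and with the compared arrays alone (0.119).

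Nop14, a processome protein, lay at 1.54 and 1.44 on the control arrays, 1.62 and 1.72 after Tip60 KD, 1.28 and 1.39 after Hdac6 KD and 1.07 and 1.13 after double KD. It fell in double KD by 0.39 on the log2 scale (SE 0.09, adjusted p = 0.0234), which was not called without control A (adjusted p = 0.108) or in the authors' table (change -0.23, adjusted p = 0.246). Its changes of 0.17 and -0.16 in Tip60 and Hdac6 KD were not called, except the first with the slide as a block (0.0894). Rrp12, a factor of small subunit export, rose by 0.35 in Hdac6 KD and by 0.31 in double KD (adjusted p = 0.037 and 0.0487). With quantile normalization these were 0.23 and 0.11 (0.515 and 0.807), and neither was called in the authors' table (0.244 and 0.517). With the slide as a block its change of 0.17 in Tip60 KD was called too (0.0644 against 0.194). Nob1, the nuclease that makes the mature end of the small subunit rRNA, rose by 0.36 in Hdac6 KD (adjusted p = 0.0745), but not without the filter on dim probes (0.146). Without control B these 3 values were not called (0.15, 0.181 and 0.233). Rrp12 in Hdac6 KD was also not called without either Hdac6 KD array (0.147 and 0.127) nor in double KD without double KD A (0.172), and Nob1 was called only when a Tip60 KD array was the one left out (0.0413). Wdr43 of the processome and Nat10, which acetylates cytidines of the small subunit rRNA, were called in none of the 3 knockdowns.

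Of the 7 genes for RNA polymerase I transcription, 3 rose and 1 fell in Tip60 KD, 3 rose and 1 fell in Hdac6 KD, and 2 rose and 1 fell in double KD. Polr1b, the second largest subunit of the enzyme, lay at 0.57 and 0.50 on the control arrays, 1.41 and 1.49 after Tip60 KD, 1.79 and 1.63 after Hdac6 KD and 1.89 and 1.67 after double KD (probe at chr2:128951870-128951929, mm9). Every knockdown array was above both controls. The rises were 1.88-fold, 2.25-fold and 2.36-fold (log2 changes 0.91, 1.17 and 1.24, SE 0.11, adjusted p = 0.00265, 0.00306 and 0.00207). Polr1a, the largest subunit, did not follow: it lay at 1.04 and 1.32 on the control arrays, 1.35 and 1.53 after Tip60 KD, 1.15 and 1.20 after Hdac6 KD and 1.14 and 1.34 after double KD, where all groups overlapped the controls except Tip60 KD. Its changes were 0.26, -0.01 and 0.06 (SE 0.13, adjusted p = 0.196, 1 and 0.785), and with the slide as a block that in Tip60 KD was called (adjusted p = 0.0259).

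Polr1e, a subunit that helps the enzyme to start, lay at 0.59 and 0.51 in control KD and between 0.94 and 1.18 on the 6 knockdown arrays. It rose by 0.55, 0.52 and 0.47 (adjusted p = 0.0158, 0.0273 and 0.0326). Polr1c, which RNA polymerase III also uses, rose by 0.34 and 0.30 in Tip60 and Hdac6 KD (adjusted p = 0.0148 and 0.0319) and changed by 0.05 in double KD (adjusted p = 0.688). Without control B, the calls of Polr1e in Hdac6 and double KD and of Polr1c in Hdac6 KD were lost (adjusted p = 0.122, 0.134 and 0.126). The first was also lost without Hdac6 KD A (0.123), the second without control A or double KD A (0.101 and 0.135), and the third without either Hdac6 KD array (0.116 and 0.141). In the authors' table Polr1c was called in neither single knockdown (0.143 and 0.201).

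Ubtf, which binds the rRNA genes along their length and keeps them open, went against the polymerase subunits. It lay at 3.23 and 3.05 on the control arrays, 2.65 and 2.70 after Tip60 KD, 2.84 and 2.78 after Hdac6 KD and 2.65 and 2.76 after double KD, so that no knockdown array reached the controls. Ubtf fell to 0.724, 0.793 and 0.739 of control (log2 changes -0.47, -0.33 and -0.44, SE 0.09, adjusted p = 0.0132, 0.0542 and 0.022). The fall in Hdac6 KD was not called without control A, Hdac6 KD A or Hdac6 KD B (adjusted p = 0.204, 0.138 and 0.221). It shrank to -0.16 with the mean of both Ubtf probes (0.288) and to -0.22 with normexp (0.297), a common background (0.285) or the authors' table (0.197). The fall in double KD was not called under the last 3 of these either (0.161, 0.129 and 0.109). Rrn3, the factor that brings the polymerase to its promoter, lay at 2.91 and 2.81 on the control arrays, 3.12 and 3.02 after Tip60 KD, 3.26 and 2.92 after Hdac6 KD and 3.28 and 2.97 after double KD. All its knockdown arrays were above the controls, but the changes of 0.21, 0.23 and 0.26 (SE 0.16) were not called (adjusted p = 0.39, 0.385 and 0.3) except with the slide as a block (0.0945, 0.0844 and 0.0545). Tcof1, the rRNA transcription factor treacle, changed by 0.19, 0.19 and 0.16 and was not called (adjusted p = 0.114, 0.151 and 0.19), whereas the block gave 0.0446, 0.0575 and 0.0797.

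Of the 4 genes of box C/D snoRNPs, which guide methylation of rRNA, 2 rose and 1 fell in Tip60 KD, 2 rose in Hdac6 KD and 1 rose in double KD. The U3 protein Rrp9 rose in all 3. It lay at 1.22 and 1.17 on the control arrays, 1.89 and 1.69 after Tip60 KD, 1.79 and 1.71 after Hdac6 KD and 1.86 and 1.71 after double KD, with rises of 1.51-fold, 1.48-fold and 1.51-fold (adjusted p = 0.00805, 0.0159 and 0.0114). The core proteins differed. Fibrillarin (Fbl), the methyltransferase itself, lay at 1.16 and 1.17 on the control arrays, 0.87 and 0.81 after Tip60 KD, 1.14 and 0.99 after Hdac6 KD and 1.04 and 1.14 after double KD. It fell to 0.8 of control in Tip60 KD (log2 change -0.32 ± 0.09, adjusted p = 0.0357), a call lost without control A, control B or Tip60 KD B (adjusted p = 0.119, 0.119 and 0.135), and its changes of -0.10 and -0.08 in Hdac6 and double KD were not called (adjusted p = 0.517 and 0.605). Nop56, a core scaffold protein, rose by 0.34 and 0.33 in Tip60 and Hdac6 KD (adjusted p = 0.0227 and 0.035), and the call in Hdac6 KD was lost without control A, control B or Hdac6 KD A (0.138, 0.103 and 0.15). In double KD its change of 0.21 was called with the block only (0.0505 against 0.115). Its partner Nop58 changed by -0.29, 0.10 and -0.21 and was not called (adjusted p = 0.151, 0.653 and 0.313), but with the slide as a block it was lower in Tip60 and double KD (0.00817 and 0.0281).

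Of the 5 genes of box H/ACA snoRNPs, which guide pseudouridylation, 1 rose and 1 fell in Tip60 KD, 1 fell in Hdac6 KD and 1 rose in double KD. Nop10, the smallest core protein, lay at 4.52 and 4.61 on the control arrays, 4.18 and 4.24 after Tip60 KD, 4.09 and 4.20 after Hdac6 KD and 4.40 and 4.47 after double KD. It fell to 0.778 and 0.744 of control in the single knockdowns (log2 changes -0.36 and -0.43, SE 0.08, adjusted p = 0.0212 and 0.0191), whereas the double KD arrays lay between (change -0.14, adjusted p = 0.31, and 0.0781 with the slide as a block). Neither fall of Nop10 was called with quantile normalization or in the authors' table of log2 values. Nolc1, which escorts snoRNPs to the nucleolus, rose by 0.44 in Tip60 KD (adjusted p = 0.0136) and by 0.29 in double KD (0.0647), where the call was lost without control B, double KD A or double KD B (0.229, 0.116 and 0.224) and with the mean of its probes (change 0.17, adjusted p = 0.181). In Hdac6 KD its change of 0.25 was called with the block only (0.0483 against 0.104).

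Dkc1, the pseudouridine synthase dyskerin, lay at 2.10 and 1.72 on the control arrays, 2.10 and 1.79 after Tip60 KD, 1.54 and 1.15 after Hdac6 KD and 1.56 and 1.26 after double KD (probe at chrX:72354473-72354532, mm9). The arrays of slide A were above those of slide B in every group, and both Hdac6-depleted groups were below the controls on either slide. Its changes were 0.03, -0.56 and -0.50 (SE 0.21), and those in Hdac6 and double KD were not called (adjusted p = 0.122 and 0.152) but had adjusted p = 0.0013 and 0.00152 with the slide as a block. The core proteins Gar1 and Nhp2 were not called in any of the 3 knockdowns. With the block, Gar1 was lower in Tip60 KD (change -0.28, adjusted p = 0.0129) and Nhp2 higher in all 3 (changes 0.20, 0.35 and 0.29, adjusted p = 0.0516, 0.0103 and 0.016).

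Nucleolin (Ncl), an abundant RNA-binding protein of the nucleolus, lay at 4.75 and 4.69 on the control arrays, 5.17 and 5.39 after Tip60 KD, 5.11 and 5.21 after Hdac6 KD and 5.04 and 5.11 after double KD. It rose 1.47-fold, 1.36-fold and 1.28-fold (log2 changes 0.56, 0.44 and 0.35, SE 0.10, adjusted p = 0.00956, 0.0305 and 0.0528), with all knockdown arrays above the controls. The call in Hdac6 KD was lost without control B or Hdac6 KD B (adjusted p = 0.128 and 0.153), and that in double KD without either control or either double KD array (0.121 to 0.186). Nucleophosmin (Npm1), the histone and ribosomal protein chaperone, lay at 7.17 and 7.07 on the control arrays, 7.23 and 7.23 after Tip60 KD, 7.04 and 7.06 after Hdac6 KD and 7.09 and 7.12 after double KD. Its changes of 0.11, -0.07 and -0.01 (SE 0.07) were not called (adjusted p = 0.319, 0.572 and 0.926). These values are of its brightest probe, and in Tip60 KD probes of Npm1 were called in opposite directions.

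Of the 38 genes, 13 had several probes that passed the filter, with 18 probes beside those of highest signal. Probes of a gene can match different transcripts, and which transcripts each one reports was not tested. For Pes1, the dimmer probe changed by -0.02, 0.12 and 0.26 in Tip60, Hdac6 and double KD, none called, against 1.39, 1.48 and 1.18 for the brighter probe. The mean of both probes, which must lie between them, changed by 0.68, 0.80 and 0.72. Probes called in opposite directions were those of Npm1 and Wdr12 in Tip60 KD and of Wdr12 in double KD. The dimmer Wdr12 probe rose by 0.30, 0.45 and 0.37 (adjusted p = 0.0748, 0.0309 and 0.0486), so the fall of Wdr12 belongs to 1 of its probes. The other Ncl probe rose by 0.87, 0.82 and 0.95 (adjusted p = 0.0286, 0.0472 and 0.0274), in the direction of the first. Ebna1bp2, a large subunit factor not called by its brightest probe, had another that rose by 0.66, 0.59 and 0.59 (adjusted p = 0.00447, 0.0114 and 0.00931). The second Tcof1 probe fell by 0.23, 0.27 and 0.28 on the log2 scale (adjusted p = 0.0945, 0.0822 and 0.0623), opposite in sign to the first.

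**Figure D3:**
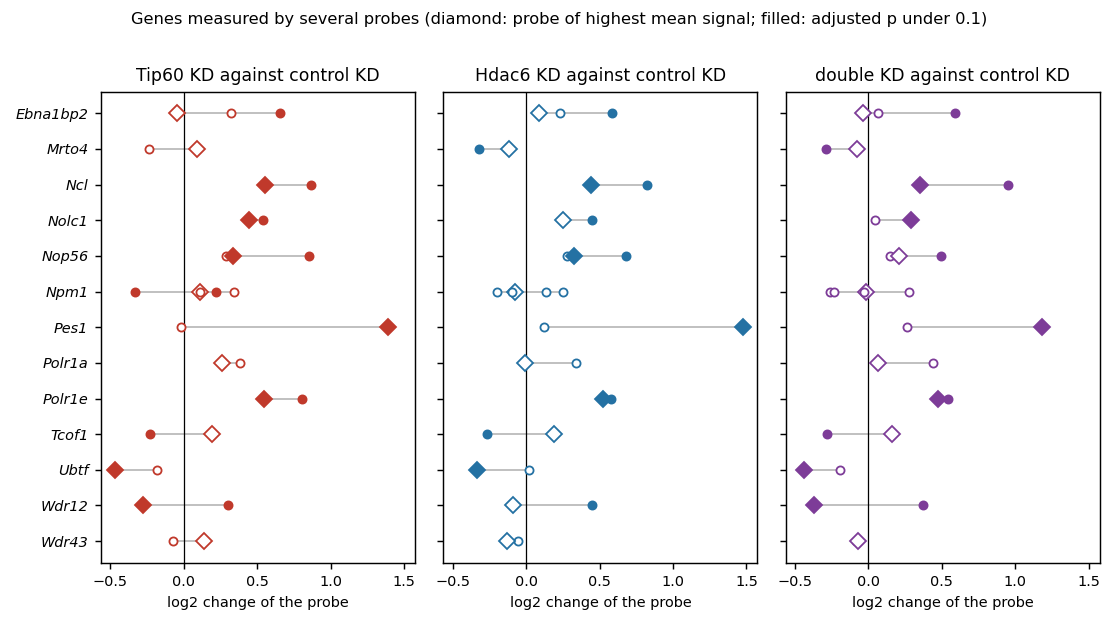
Log2 change of every probe that passed the filter (x axis) for the 13 genes with several probes, in Tip60, Hdac6 and double KD against control KD. Diamonds are the probe of highest mean signal, which stands for the gene elsewhere, circles the others, and filled symbols have an adjusted p under 0.1 in a fit over all probes. The probes of Pes1 are furthest apart, and those of Wdr12 lie on either side of 0 in all 3 panels.

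The 3 knockdowns were also compared with each other. Between Tip60 and Hdac6 KD, 5 of the 38 (13.2%) were called, against 23.5% of all genes. Heatr1 was higher in Tip60 KD by 0.77 ± 0.09 (adjusted p = 0.00587), Wdr74 by 0.41 ± 0.07 (0.0171) and Nop14 by 0.33 ± 0.09 (0.0503). Nop58 was lower by 0.40 on the log2 scale (SE 0.13, adjusted p = 0.0995) and Nob1 by 0.39 (SE 0.11, adjusted p = 0.0728). The count was 2 or 3 when any of the 8 arrays was left out, Heatr1 being called each time, and 17 (44.7%, against 41.5% of all genes) with the slide as a block. Of the 12 calls the block added, Bop1, Dkc1, Imp4, Npm1, Polr1a and Wdr43 were higher in Tip60 KD and Fbl, Gar1, Polr1b, Rrp12, Rrs1 and Wdr12 lower. Dkc1 changed most among them, by 0.60 (adjusted p = 0.00132, against 0.123 without the block).

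Double KD differed from Tip60 KD in 2 members (5.26%), against 3.71% of all genes. Wdr74 was lower in double KD by 0.60 on the log2 scale (SE 0.07, adjusted p = 0.05) and Nop14 by 0.57 (SE 0.09, adjusted p = 0.0672), and for both genes the double KD arrays lay below those of Tip60 KD. Without any array of the 8, neither was called (adjusted p = 0.126 to 0.263), and with the slide as a block 11 members were (28.9%, against 26.2% of all genes). The block added Dkc1, Gnl3, Heatr1, Polr1c and Wdr43, lower in double KD, and Fbl, Gar1, Nop10 and Polr1b, higher. Double KD differed from Hdac6 KD in 2 members, against 10.1% of all genes: Heatr1 was higher by 0.41 ± 0.09 (adjusted p = 0.0599) and Wdr12 lower by 0.28 on the log2 scale (SE 0.07, adjusted p = 0.077). The count was 0 or 1 without any array of the 8, and 10 (26.3%, against 29.4% of all genes) with the block, which added Bop1, Imp4 and Nop10, higher in double KD, and Gnl3, Nop14, Nop58, Polr1c and Wdr74, lower.

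The interaction asks whether the double KD change equals both single changes added on the log2 scale. In other words, it asks whether adding the Hdac6 hairpin did the same in cells with and without Tip60 knockdown. The depletions were partial and unequal. Kat5 changed by -1.35 in Tip60 KD, and Hdac6 by -2.49 from control to Hdac6 KD but by -1.44 from Tip60 to double KD. The part of this difference in the interaction was not tested. The interaction was called for 17 of the 38 genes (44.7%), against 22.0% of all genes. In 16 of them (42.1%, against 10.9% of all genes) the double KD change was below the sum, and in Nop10 it was above. Both single changes and the double change are taken against the same controls, so an error in the control arrays enters the interaction with the sign opposite to its effect on each change. Pes1 had the largest value, -1.68 ± 0.22 (adjusted p = 0.0114): its level in double KD was close to that in each single knockdown, where a sum would have put it far higher. With the mean of its probes it was -0.76 (0.0574). Nop16 followed with -1.04 ± 0.21 (0.0307), Imp4 with -0.99 ± 0.20 (0.031) and Polr1b with -0.84 ± 0.15 (0.0236). Wdr74, at -0.80 ± 0.10 (0.0113), differed from these, since its double KD level was that of the controls. Nop10, at 0.65 ± 0.12 (0.0224), had fallen in both single knockdowns and less in double KD. The count fell when any of the 8 arrays was left out, with no share of all genes given here to set it against. It was 23 (60.5%, against 47.1% of all genes) with the slide as a block, which added Bop1, Bysl and Nhp2 below 0 and Fbl, Gar1 and Ubtf above. Without Hdac6 KD B, Nop16 was no longer called (adjusted p = 0.104).

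**Figure D4:**
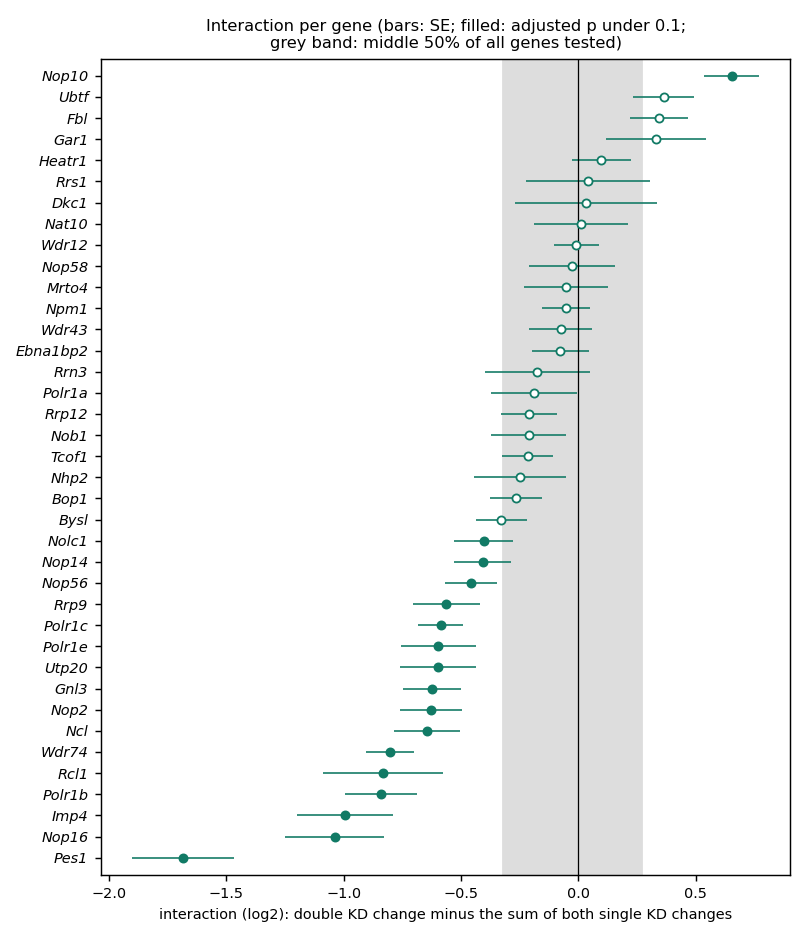
Interaction of each of the 38 genes (x axis, log2), the double KD change minus the sum of both single KD changes. Points are the fitted values, bars their SE, filled points have an adjusted p under 0.1, and the grey band is the middle 50% of all genes tested. Pes1 lies lowest at -1.68 and Nop10 highest at 0.65, and 16 of the 17 called values are below 0.

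The other genes of ribosome assembly were counted in the same way. Of 133 further RNA polymerase I, snoRNP, subunit assembly and nuclear exosome genes that passed the filter, 47 rose (35.3%, against 19.7% of all genes) and 13 fell (9.77%, against 20.0%) in Tip60 KD, with a median change of 0.20. In Hdac6 KD, 40 rose (30.1%, against 14.0%) and 12 fell (9.02%, against 14.9%), with a median of 0.12, and in double KD 35 rose (26.3%, against 15.9%) and 12 fell (9.02%, against 16.9%), with a median of 0.10. The largest increase in Tip60 KD was that of Ftsj3, an rRNA methyltransferase of the large subunit (1.54, adjusted p = 0.00051), and the largest decrease that of Utp11 of the processome (-0.69, adjusted p = 0.0352). In Hdac6 and double KD the largest increase was that of the helicase gene Ddx51 (0.97 and 1.26, adjusted p = 0.00601 and 0.00258). The medians of these genes stayed between 0.0851 and 0.225 under every other scaling, background and probe rule tried.

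The genes for the ribosomal proteins themselves went the other way, by an amount that depended on the scaling. Of 87 genes for cytosolic ribosomal proteins, 2 rose and 46 fell in Tip60 KD (52.9% lower, against 20.0% of all genes, median -0.31), and 45 fell in each of Hdac6 KD (51.7%, against 14.9%, median -0.28) and double KD (51.7%, against 16.9%, median -0.28). After quantile normalization 25, 16 and 13 fell (28.7%, 18.4% and 14.9%, against 19.0%, 13.3% and 14.2% of all genes), with medians of -0.11, -0.07 and -0.07. By the authors' table, 22, 13 and 11 fell (25.3%, 14.9% and 12.6%, against 17.2%, 11.1% and 11.5%). The medians were below 0 under each scaling tried, whereas in double KD the share that fell was near that of all genes under these 2 scalings. These genes share near-identical copies, so their probes may also report other copies.

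Of 28 genes known to respond to Myc but acting outside the nucleolus, 16 (57.1%) were called in Tip60 KD, against 39.7% of all genes. In Hdac6 KD 9 were called (32.1%, against 28.9%), and in double KD 11 (39.3%, against 32.8%). By direction, 9 rose and 7 fell in Tip60 KD (median 0.02). In Hdac6 KD 5 rose and 4 fell (median 0.00), and in double KD 5 rose and 6 fell (median -0.08). Of all genes, 19.7%, 14.0% and 15.9% rose and 20.0%, 14.9% and 16.9% fell in Tip60, Hdac6 and double KD. The balance of the 28 genes also depended on the scaling. With quantile normalization 10 rose and 4 fell, 9 rose and 2 fell, and 9 rose and 3 fell in the same order (medians 0.07, 0.12 and 0.03). There 3528, 2639 and 2809 of all 18116 genes rose and 3435, 2404 and 2574 fell. By the authors' table the 28 genes gave 9 and 2, 4 and 2, and 7 and 1 (medians 0.10, 0.14 and 0.13). Of all genes, 3117, 2024 and 2291 rose in that table and 3124, 2018 and 2092 fell. Ccnd2, a cyclin of the G1 phase, was furthest up (3.08, 1.11 and 2.24, adjusted p = 0.000244, 0.002 and 0.000736). How these lists differ from the 38 genes was not tested.

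**Figure D5:**
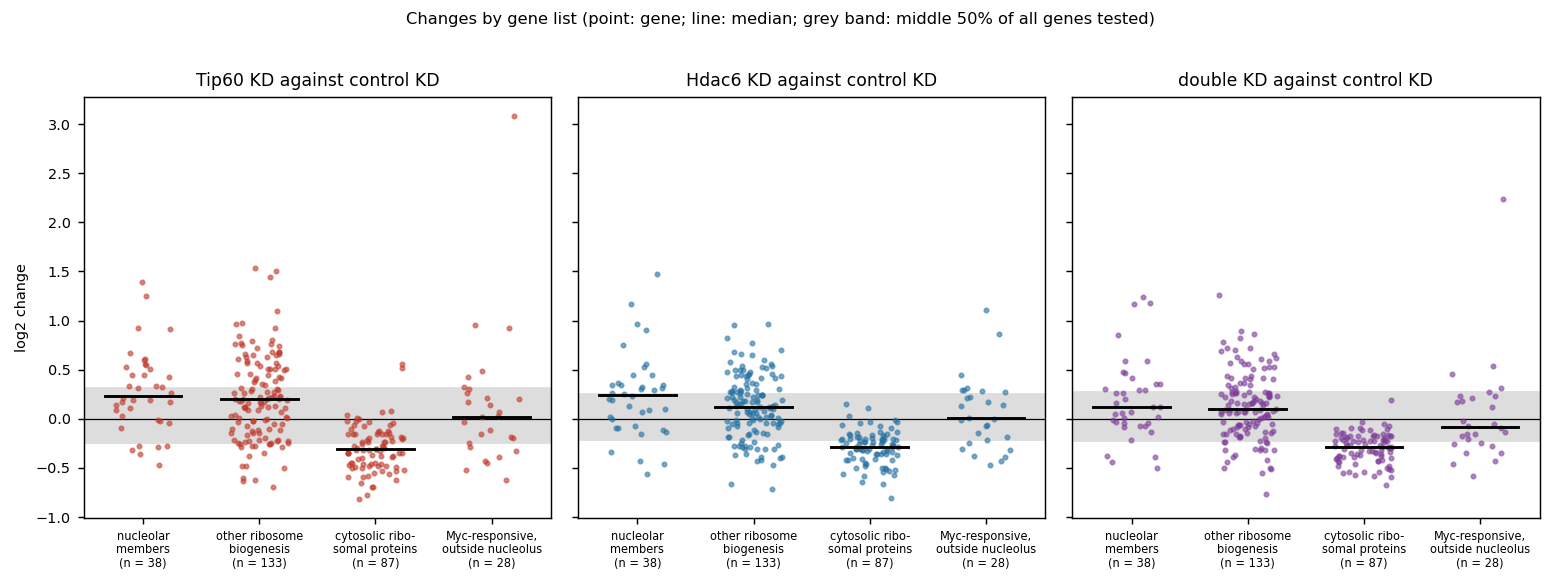
Log2 change of single genes (y axis) in Tip60, Hdac6 and double KD against control KD for the 38 nucleolar genes, 133 other ribosome biogenesis genes, 87 cytosolic ribosomal protein genes and 28 Myc-responsive genes outside the nucleolus (x axis; horizontal scatter within a list is for display). Lines are medians and the grey band is the middle 50% of all genes tested. The medians of the nucleolar genes are 0.23, 0.24 and 0.12, and those of the ribosomal protein genes, which depend on the scaling, -0.31, -0.28 and -0.28.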

How the data were processed

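RNA of 8 samples (4 groups of 2) was converted to labelled cRNA for Agilent mouse arrays of 1 colour. Per the file headers, spots were quantified with Agilent Feature Extraction 10.7.1.1, and the deposited scanner values are fluorescence intensity, raw and processed, the latter after spatial and multiplicative detrending and not scaled across arrays. Log2 values without a stated scale, deposited in the series matrix, ranked probes nearly as the median signals did and served as an alternative. Probe positions are those of the files (mm9).

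The arrays held 43020 spots of 39429 probes. Spots marked as outliers were left out, and spots of a probe averaged. The processed signal was divided by the array's 75th percentile, raised to a common floor (0.153 of the percentile) and taken to log2. Probes above background and floor on at least 2 arrays were kept, and the probe with the highest mean signal stood for its gene (18116 genes). RefSeq accessions named 27234 probes. Of 57 member probes, 56 were kept. No spot was saturated, and 21896 to 40609 spots of an array were well above background. The number of arrays limits the precision.

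Groups were compared with limma 3.58.1 (lmFit, eBayes) in R 4.3.3, 2-sided, in 1 fit of all 8 arrays without a block (4 residual and 1.84 prior degrees of freedom), at a Benjamini-Hochberg adjusted p under 0.1 over all genes. The steps were tested on simulated data. The replicate letter is also the slide, and the position on the slide cannot be told apart from the group. Differences between replicates A and B correlated across genes between every pair of groups (6 correlations, 0.651 to 0.799), so that the letters pair the arrays. The fit with this block is given where it changes a call. Alternatives were other background corrections, scalings, floors, filters, probe rules, thresholds, arrays in the fit, and each array left out. Where a group is left with 1 array, it is assumed to vary like the others.

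Every member may be named. Full statistics were given per knockdown for the 4 largest increases and 4 largest decreases called, for Ncl, Npm1, Fbl, Dkc1, Polr1a, Rrn3, Ubtf, Heatr1, Bop1, Nop2 and Gnl3, for up to 4 members in each comparison between knockdowns and the interaction, and for Kat5, Hdac6 and Myc. Values of other members were added after they had been seen. The members and lists were chosen with earlier results of these data known. Figures were drawn with matplotlib 3.10.9 (Python 3.11.15).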

Additional observations from a re-analysis of the deposited data

Results flagged for a closer look

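For 17 of the 38 genes (44.7%, against 22.0% of all genes) the change on Hdac6 KD differed between cells with and without Tip60 knockdown. The rule was the interaction term of the limma fit at an adjusted p under 0.1. Hdac6 itself was lowered less in cells with Tip60 knockdown, and the part of this was not tested. The interaction (log2) was negative for Pes1 (-1.68), Nop16 (-1.04), Imp4 (-0.99), Polr1b (-0.84), Rcl1 (-0.83), Wdr74 (-0.80), Ncl (-0.64), Nop2 (-0.63), Gnl3 (-0.62), Utp20 (-0.60), Polr1e (-0.60), Polr1c (-0.59), Rrp9 (-0.56), Nop56 (-0.46), Nop14 (-0.41) and Nolc1 (-0.40). It was positive for Nop10 (0.65). Every value uses the same pair of control arrays, and 4 of the calls (Imp4, Pes1, Polr1b and Wdr74) held under all 21 alternatives other than a fold limit. Apart from arrays left out, 11 others were lost under at least 1 processing alternative (Gnl3, Nolc1, Nop10, Nop14, Nop2, Nop56, Polr1c, Polr1e, Rcl1, Rrp9 and Utp20). The value of -1.68 for Pes1 is that of its brighter probe, and the mean of its probes gave -0.76 (adjusted p = 0.0574). The dimmer Pes1 probe was called in no knockdown, so this interaction rests on 1 probe.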

How the results depend on the processing

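With 2 arrays a group and changes mostly under 2-fold, calls moved more than values did. Apart from the 2-fold rule, 15 of 22 calls in Tip60 KD, 6 of 20 in Hdac6 KD (Heatr1, Imp4, Nop16, Pes1, Polr1b and Rrp9) and 7 of 16 in double KD (Bop1, Bysl, Imp4, Nop16, Pes1, Polr1b and Rrp9) held under all 22 alternatives (21 for Nop2, which has no control value without control B). The Pes1 calls among these rest on its brighter probe, as its dimmer probe was called in no knockdown. The median change of the 38 genes ranged from 0.22 to 0.32, 0.18 to 0.28 and 0.09 to 0.21. Wdr12 in Tip60 KD was reversed to 0.012 (adjusted p = 0.939) by the mean of its probes, and Ebna1bp2 in Tip60 KD, not called before, was called at 0.31 (adjusted p = 0.0301), so the choice of probe decides both.

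A change of at least 2-fold left 2, 2 and 3 members called in Tip60, Hdac6 and double KD, 0 in each comparison between knockdowns and 2 in the interaction. Leaving out each array in turn gave 17 to 22, 8 to 18 and 10 to 15 members in the 3 knockdowns, 2 to 3 for Tip60 against Hdac6 KD, 0 for double against Tip60 KD whichever was left out, 0 to 1 for double against Hdac6 KD and 8 to 12 for the interaction. Fewer arrays leave fewer degrees of freedom in these fits. The counts in this paragraph carry no share of all genes, so they do not show how the members compared with the background. At an unadjusted p under 0.05, with all arrays, 10, 9 and 7 members passed between the knockdowns. For Tip60 against Hdac6 KD the count was 3 with normexp, 8 with quantile normalization, and 2 with the compared arrays alone or an adjusted p under 0.05. For double against Tip60 KD it was 0 with normexp, the series matrix, the compared arrays alone or an adjusted p under 0.05, and 4 with quantile normalization. For double against Hdac6 KD it was 4 without a filter, 1 with the series matrix, and 0 with the compared arrays alone or an adjusted p under 0.05. The interaction count was 11 with the series matrix or an adjusted p under 0.05. In the series matrix 14 were called higher and 1 lower in double KD, against 13 and 3. The cause was not tested.

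Pairing the arrays by letter (replicate block) gave 30, 26 and 24 members in the 3 knockdowns (78.9%, 68.4% and 63.2%, against 60.8%, 52.9% and 55.4% of all genes). For Tip60 against Hdac6, double against Tip60 and double against Hdac6 KD it gave 17, 11 and 10 members. These were 44.7%, 28.9% and 26.3%, against 41.5%, 26.2% and 29.4% of all genes. The interaction was called for 23 (60.5%, against 47.1%), and every earlier call was retained. With a trend on probe GC content removed as well the counts were 28, 26 and 21, then 16, 11 and 10, and 20. In the 3 knockdowns 5325, 4659 and 4701 of all 18116 genes were then called higher and 5341, 4725 and 5076 lower. The other counts of this setting carry no share of all genes here.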
